A study of Gallus gallus with 48 samples.

Results

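Growth hormone (GH), its receptor (GHR) and the insulin-like growth factors IGF-1 and IGF-2 were followed in the liver of growing chickens. They are 4 of the 20 genes of a small oligonucleotide panel and were taken by name, as all probes of the growth hormone and IGF axis on it. The 48 liver samples came from male birds of an indigenous breed, Beijing-You, aged 6, 8, 10 or 12 weeks, with no treatment named. There were 12 samples per age, 6 labelled with Cy3 and 6 with Cy5, and a sub-array received 1 sample and 1 dye. According to the deposited notes, samples 5 and 8 of 8 weeks were a technical repeat of the same extract, yet different dyes are recorded for them, and the remaining samples were biological replicates. That pair was averaged, which gave 47 units for the tests.

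GH is secreted by the pituitary and binds GHR on hepatocytes. The receptor signals through a kinase and a transcription factor that raise transcription of IGF-1, and in mammals the liver releases most of the IGF-1 found in blood. IGF-1 mediates much of the effect of growth hormone on muscle and bone, while IGF-2, a related peptide best known as a fetal growth factor in mammals, also circulates in birds after hatching. Of 11 further genes of this pathway looked for on the panel, among them the IGF receptors and binding proteins, JAK2, STAT5B and SOCS2, 0 were present. The course from hormone to downstream targets could therefore be followed only through these 4 probes.

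Values are the authors' deposited log2 values. A probe was coded as missing where no spot exceeded a cutoff of 300 intensity units after subtraction of its local background. In 26 samples the signal of the corn control, up to 1079 units, was subtracted as well before the cutoff. Each sample was then divided by a factor of its own. A missing value is thus a value below a sample-specific bound, here called the lowest reportable value, which ran from 5.11 to 10.12 on the log2 scale. Its median was 7.68 at 6 weeks, 7.96 at 8 weeks, 7.70 at 10 weeks and 6.19 at 12 weeks. Between 3 and 20 of the panel genes were measured in a sample, with a median of 14. A stricter criterion counted a probe as above background where foreground minus local background was over 2 SD of that background. The corn control was not subtracted for it. Among the marker genes, L-FABP and Apo-B, which mark hepatocytes, were measured in 37 and 36 samples and were above background by that criterion in 13 and 5. H-FABP, a muscle marker, was measured in 45 samples and above background in 25. LPL, which marks adipose tissue, was measured in 45 and above background in 16. Both muscle and adipose markers were thus more often above background than the hepatocyte markers, and their part in the results below was not tested. In tissue RNA, fewer cells of a type and less RNA per cell cannot be told apart.

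IGF-1 was the member measured most often, in 39 of 48 samples, followed by GHR in 33, GH in 26 and IGF-2 in 17. By that number they ranked 9, 13, 16 and 19 among the 20 panel genes. Above the local background by 2 SD, however, were IGF-1 in 10 samples, GHR in 9, and GH and IGF-2 in 1 each. Over the other panel genes the count above background ran from 1 to 35 samples. GH stood above background in 0 samples of 6, 8 and 12 weeks and IGF-2 in 0 samples of 6, 10 and 12 weeks, so their levels at those ages, and the differences between such ages given below, are those of near-background values and not measures of fold change. The foreground of measured GH spots exceeded their background by a median of 15.0%, that of IGF-2 spots by 18.5%, that of GHR spots by 30.0% and that of IGF-1 spots by 32.6%. Where both spots of a probe were kept, they differed by a median of 0.49 on the log2 scale for GH in 13 samples, 0.38 for IGF-2 in 10, 0.35 for GHR in 24 and 0.34 for IGF-1 in 34. The same median ran from 0.17 to 0.55 over the 16 other panel genes. All 4 members were measured in 9 samples, 3 in 13, 2 in 16, 1 in 8 and 0 in 2.

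GHR passed the cutoff far more often with the dye than without it in both channels, while the other members did so mainly in the Cy5 channel. Each sub-array carried 1 dye, so the other channel of the same spots gave a control without label, read with the same cutoff. GHR passed the cutoff in the Cy3 channel of 14 of the 24 samples that carried Cy3, against 4 of the 24 that did not. In the Cy5 channel it passed in 19 of 24 with label and 2 of 24 without. GH passed in the Cy3 channel of 15 samples with label and 13 without, but in the Cy5 channel of 11 with label and 0 without. For IGF-1 the Cy3 counts were 21 with label and 15 without, and the Cy5 counts 18 and 1. IGF-2 gave 8 with and 8 without Cy3, and 9 with and 1 without Cy5. In the Cy3 channel, GH and IGF-2 were therefore past the cutoff about as often without as with the dye. Over the 16 other panel genes, the Cy3 count with label ranged from 6 to 24 with a median of 17. Without label it ranged from 0 to 24 with a median of 5. Their Cy5 count ranged from 8 to 24 with label (median 19) and from 0 to 6 without (median 3). The GHR counts lay near these medians, so its contrast between label and no label is not particular to GHR. The blank spots passed the cutoff in 2 Cy3 samples and 10 Cy5 samples in the labelled channel and in 0 samples in the unlabelled one. With Cy5 label, GH (11) and IGF-2 (9) thus passed about as often as the blank (10), so their Cy5 counts do not show signal beyond it. These counts are descriptions and were not tested.

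**Figure D1:**
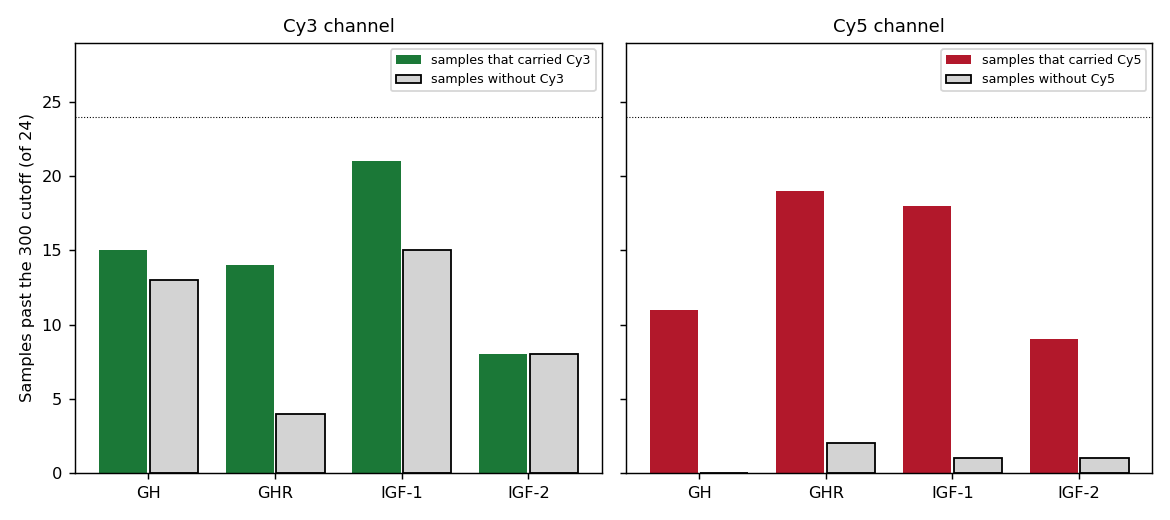
Number of samples in which each probe passed the cutoff of 300 intensity units, of 24 with the dye (coloured bars) and 24 without it (grey bars), in the Cy3 channel (left) and the Cy5 channel (right); the dotted line marks 24. GHR passed far more often with label in both channels, and GH (15 and 13) and IGF-2 (8 and 8) passed about equally often with and without Cy3.

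The hormone itself, GH, was measured in 7 samples at 6 weeks, 8 at 8 weeks, 5 at 10 weeks and 6 at 12 weeks. At 6 weeks its values ran from 5.42 to 11.18 with a median of 9.58, and at 8 weeks from 6.78 to 10.50 with a median of 9.72. The 5 measured samples of 10 weeks had 6.88, 7.31, 8.60, 9.96 and 12.49. At 12 weeks values ran from 5.89 to 11.47 with a median of 8.07. The ages overlapped over most of their range, and the highest GH value of all was a 10-week sample kept on 1 spot. The means were highest at 8 weeks, 9.34 ± 1.15 (SD, n = 8), then 9.05 ± 2.27 at 10 weeks (n = 5), 8.65 ± 2.13 at 6 weeks (n = 7) and 8.44 ± 2.13 at 12 weeks (n = 6). Each neighbouring pair in that order differed by less than its SD. In the single sample where GH stood above background by 2 SD, sample 10 of 10 weeks, GHR and IGF-1 did too, as did 11 of the 20 panel genes in all.

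GHR was measured in 9 samples at 6 weeks, 7 at 8 weeks, 6 at 10 weeks and 11 at 12 weeks, and stood above background by 2 SD in 1, 1, 3 and 4 of them. Samples 8 and 9 of 10 weeks were among these. Their corn signals were 1020 and 903 units, which the 2 SD criterion does not subtract, and 9 and 12 panel genes stood above background in them. GHR values ran from 7.20 to 12.02 at 6 weeks with a median of 8.99, and from 6.56 to 11.51 at 8 weeks with a median of 9.52. At 10 weeks they ran from 7.41 to 10.86 with a median of 9.73. The 12-week values covered the widest range, 5.98 to 12.96, with a median of 7.82: samples 1 and 5 stood at 12.96 and 12.85 and 8 of the 11 lay below 9. Mean levels were 9.53 ± 1.40 at 8 weeks (SD, n = 6 units), 9.49 ± 1.41 at 10 weeks (n = 6), 9.28 ± 1.67 at 6 weeks (n = 9) and 8.66 ± 2.47 at 12 weeks (n = 11). No neighbours in this order differed by more than their SD. Sample 5 of 12 weeks also held the highest GHR value relative to its own panel, 2.83 above the sample's median panel gene, while the other GHR values lay between -2.25 and 0.98.

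IGF-1, the main product of GHR signalling in liver, was measured in 10, 11, 9 and 9 samples at 6, 8, 10 and 12 weeks. At 6 weeks its values were split: samples 6, 7 and 10 lay at 12.53, 12.28 and 11.66 and the other 7 lay between 7.35 and 8.76. The same 3 samples were also highest relative to their own panel, at 0.84, 2.12 and 1.35 above the sample's median panel gene, against -3.34 to -0.28 in the other 7. GH and IGF-2 were both measured in all 3 of them and in 1 of the other 7, sample 5. The 3 samples had 16, 20 and 12 of the 20 panel genes measured. IGF-1 stood above background by 2 SD in samples 7 and 10 but not in sample 6. The median local background of sample 6, 15950 units, was the highest of all samples. Sample 6 is 1 of the 3 samples whose deposited series table differs from the scanner file, and the other 2 high samples are not. Values ran from 5.85 to 11.07 with a median of 9.22 at 8 weeks, from 7.44 to 12.33 with a median of 10.41 at 10 weeks and from 6.24 to 11.93 with a median of 8.66 at 12 weeks. The 4 ranges overlapped. The mean was highest at 10 weeks, 9.96 ± 1.74 (SD, n = 9), followed by 9.47 ± 1.37 at 8 weeks (n = 10 units), 9.22 ± 2.09 at 6 weeks (n = 10) and 8.70 ± 1.82 at 12 weeks (n = 9). Of the 10 samples with IGF-1 above background by 2 SD, 5 were of 10 weeks, 2 of 6 weeks, 2 of 8 weeks and 1 of 12 weeks. In those of 10 weeks, 7 to 14 of the 20 panel genes stood above background, against 4 to 12 in the rest. Sample 5 of 10 weeks had a corn signal of 1040.5 units, which that criterion does not subtract, and 383 units of IGF-1 after subtraction. Whether the count of 10 weeks is particular to IGF-1 was not tested.

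IGF-2 was measured in 5 samples at 6 weeks and in 4 at each later age. The 6-week values were 6.85, 9.49, 9.65, 9.80 and 10.58. At 8 weeks they were 8.78, 9.34, 10.44 and 11.33, and the highest of these, in sample 2, was the one IGF-2 value above background by 2 SD. GHR and IGF-1 stood above background in that sample as well, in which 12 of the 20 panel genes did and all 20 were measured. The 10-week values were 7.16, 7.81, 8.99 and 9.29, and the 12-week values 6.07, 6.80, 9.21 and 10.00. Of the 4 values of 8 weeks 3, and of the 5 values of 6 weeks 4, lay above every value of 10 weeks. Mean levels fell in the order 8 weeks, 9.97 ± 1.14 (SD, n = 4), 6 weeks, 9.27 ± 1.42 (n = 5), 10 weeks, 8.31 ± 1.00 (n = 4), and 12 weeks, 8.02 ± 1.88 (n = 4). Neighbours in this order again differed by less than the larger of their SDs. Relative to the sample's median panel gene, the 8-week values, -0.72 to -0.11, lay above those of 10 weeks, -2.68 to -0.87, and of 12 weeks, -1.97 to -0.80. Of the 120 pairs of ages over all genes, 1.67% did not overlap on that scale, and these 2 were the ones. The centred difference of 10 minus 8 weeks was -1.25 ± 0.61 (SE), with an unadjusted p of 0.0485 and an adjusted p of 0.939 by limma, and that of 12 minus 8 weeks was -0.88 ± 0.62 (adjusted p = 0.979 by limma).

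**Figure D2:**
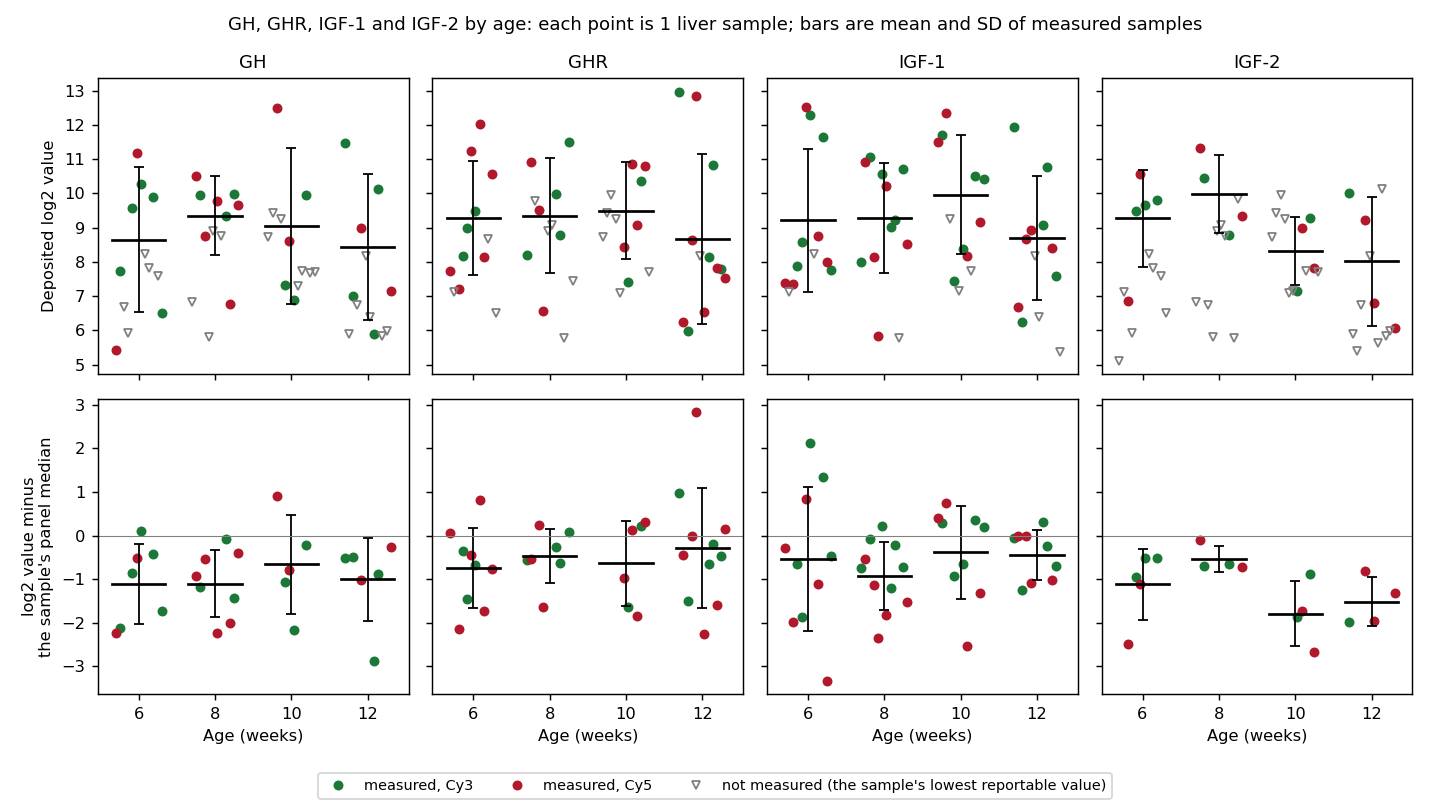
Values of GH, GHR, IGF-1 and IGF-2 by age in weeks, 1 point per measured sample, coloured by dye, as deposited (top, log2) and minus the sample's median panel gene (bottom, log2). Triangles give the lowest reportable value of samples in which the probe was not measured, bars give the mean and SD over measured samples, and samples 5 and 8 of 8 weeks are drawn singly; the ages overlap for all 4 genes as deposited, and after centring for all but IGF-2, whose 8-week values lie above those of 10 and 12 weeks.

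The first question was whether the axis changes between 6 and 12 weeks. Neither the number of samples with a value nor the level of any member passed the test for a difference between ages. The share of units measured was compared over the 4 ages by a permutation test within dye, and 0% of the 20 genes were called. It gave p = 0.533 for GH, 0.105 for GHR, 0.851 for IGF-1 and 1 for IGF-2 (adjusted p = 0.904, 0.797, 1 and 1). GHR, measured in 11 of 12 units at 12 weeks and 6 of 12 at 10 weeks, had the lowest p of the 4. The lowest reportable value was also lowest at 12 weeks, and its part in that count was not tested.

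Levels were tested with limma on measured values only, with age and dye as terms and adjustment over all 20 genes. At 12 weeks the median lowest reportable value was 6.19, against 7.68 to 7.96 at the other ages, so lower values could be reported there. Age means, differences and slopes of the deposited values thus compare sets cut off at different bounds, and the part of this in them was not tested. Of all genes 0% were called for age, and 1 of 20 had an unadjusted p under 0.05. For the members the moderated F test gave an adjusted p of 0.832 for GH, 0.832 for GHR, 0.737 for IGF-1 and 0.567 for IGF-2. Of the 120 pairwise age differences of all genes 0% were called by limma, with 8 at an unadjusted p under 0.05, 0 of them from the members. The largest difference of each member was -0.89 ± 0.94 (SE) for GH and -0.88 ± 0.88 for GHR, both 12 minus 8 weeks. For IGF-1 it was -1.26 ± 0.78, 12 minus 10 weeks, and for IGF-2 -1.81 ± 1.09, 12 minus 8 weeks. The limma adjusted p of these 4 differences ran from 0.661 to 0.812. A linear term gave slopes per week of -0.05 ± 0.15 for GH, -0.10 ± 0.12 for GHR, -0.05 ± 0.12 for IGF-1 and -0.23 ± 0.17 for IGF-2 (adjusted p by limma 0.760, 0.757, 0.760 and 0.641). Here too 0% of the 20 genes were called, with 1 at an unadjusted p under 0.05.

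All 4 members had their lowest mean at 12 weeks, but so had most of the panel. The median difference over the 20 genes was -0.74 for 12 minus 6 weeks, -0.89 for 12 minus 8 weeks and -0.90 for 12 minus 10 weeks, and 2, 0 and 0 of the 20 genes lay above 0. The members' own values for 12 minus 6 weeks were -0.22 ± 0.94 (SE) for GH, -0.60 ± 0.78 for GHR, -0.54 ± 0.76 for IGF-1 and -1.06 ± 1.05 for IGF-2. With each sample centred on its median panel gene, these became 0.10 ± 0.53, 0.47 ± 0.47, 0.05 ± 0.47 and -0.27 ± 0.59, so that GH, GHR and IGF-1 changed sign. The limma adjusted p after centring was 0.980 for GH, 0.979 for GHR, 0.980 for IGF-1 and 0.979 for IGF-2. For GHR the sign was positive with both centrings and with background-corrected scanner intensities (0.57 ± 0.36), which were also centred on the sample's median panel gene. The GHR difference was -0.04 ± 0.52 when only the authors' factor was taken out, without centring. IGF-2 kept a negative sign under the 5 scalings plotted here, from -1.06 to -0.0025.

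**Figure D3:**
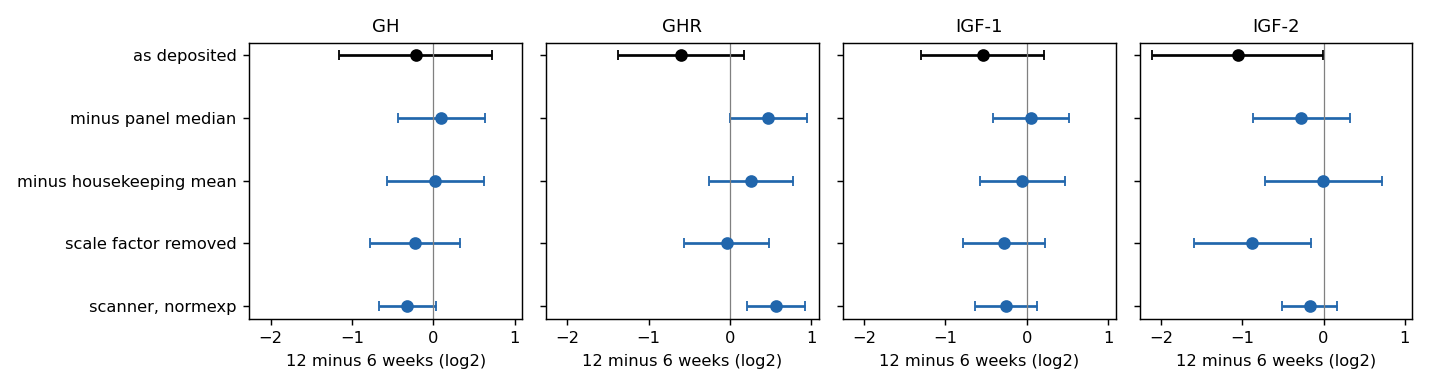
Difference between 12 and 6 weeks (log2, point and SE) for the 4 genes with the values as deposited (black) and under 4 other scalings (blue). The deposited values put all 4 genes below 0, and GHR moves from -0.60 to 0.47 when each sample is centred on its median panel gene.

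Slides were inferred: samples with the same recorded scan time were taken as 1 slide, which gave 11 slides. Within these inferred slides the slope over age took both signs. Among slides with several ages, GH had a slope above 0 on 3 of 6 slides, GHR on 3 of 8, IGF-1 on 5 of 9 and IGF-2 on 1 of 5. For each gene at least 1 of these slopes rests on 2 units only, and dye was not a term in them. Fits with the slide as a fixed or random block called 0 genes for age. The technical pair, whose samples differ in recorded dye and in inferred slide, read far apart in the deposited values. GHR read 6.56 in sample 5 and 9.97 in sample 8 of 8 weeks, and IGF-1 read 5.85 and 9.01, while GH and IGF-2 were measured in neither. These gaps of 3.41 and 3.17 exceed every difference between age means given above, and all 12 genes measured in both samples were higher in sample 8. Before division by the samples' factors, whose log2 was 2.43 in sample 5 and -0.52 in sample 8, the intensities were close, 506 and 701 units for GHR and 309 and 361 for IGF-1. After centring, the gaps were 1.39 for GHR and 1.14 for IGF-1.

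The dye made no difference to the members that passed the test. Cy5 minus Cy3 was 0.05 ± 0.70 (SE) for GH, 0.10 ± 0.64 for GHR, -0.43 ± 0.55 for IGF-1 and -0.56 ± 0.76 for IGF-2, with limma adjusted p between 0.779 and 0.949. Of the 20 genes, 10% were called higher and 10% lower with Cy5. After centring, IGF-1 was 0.74 lower with Cy5 (coefficient -0.74 ± 0.34), with an unadjusted p of 0.0323 and an adjusted p of 0.129 by limma. An age course that differed between dyes was tested as an interaction, and its adjusted p was 0.957 for all 4.

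The second question was whether receptor and growth factors vary together across livers. In the deposited values they did, and so did most other pairs of panel genes. Residuals after age and dye were correlated over the units measured for both genes, with permutation p-values adjusted over 186 pairs. The permutations made no allowance for the age and dye terms fitted first, so these p-values are too small where few units are shared. GHR and IGF-1 gave Pearson r = 0.76 and Spearman rho = 0.77 over 27 units (permutation p = 1e-05 for both, the smallest that the permutations can give, adjusted p = 5.64e-05 and 7.15e-05). GH correlated with GHR at r = 0.82 and rho = 0.88 (17 units) and with IGF-1 at r = 0.85 and rho = 0.84 (22 units). For IGF-2, r was 0.89 with GH (13 units), 0.89 with GHR (14 units) and 0.78 with IGF-1 (15 units), and rho was 0.82, 0.89 and 0.81. The permutation p of these 5 values of r ran from 1e-05 to 0.00074. All 6 pairs were called, against 77.4% of the 186 pairs of panel genes, whose median r was 0.61. Without the 2 units farthest from the median, r of the 6 pairs ran from 0.73 to 0.92. Within dyes, GHR and IGF-1 gave r = 0.87 in Cy3 and 0.71 in Cy5 samples, with 14 units each.

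Each member's deposited value also followed the factor by which its sample was divided. Pearson's r with the log2 factor was -0.86 for GH (26 units), -0.77 for GHR (32 units), -0.79 for IGF-1 (38 units) and -0.78 for IGF-2 (17 units), and Spearman's rho was -0.86, -0.81, -0.81 and -0.75. The adjusted permutation p was at most 0.00025 for r, and without the 2 units farthest from the median r ran from -0.85 to -0.72. Of the 20 panel genes 95% were called in this direction. Within Cy3 and within Cy5 samples the same r lay between -0.94 and -0.76 for the members. Since a value is divided by this factor and cannot lie below a bound set by it, part of the relation is built into the scale. The permutation p takes value and factor as unrelated, so it cannot tell how much goes beyond that part. The factor was larger at 12 weeks, with a median of 2.04 on the log2 scale, than at 6, 8 and 10 weeks, with 0.55, 0.27 and 0.53.

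**Figure D4:**
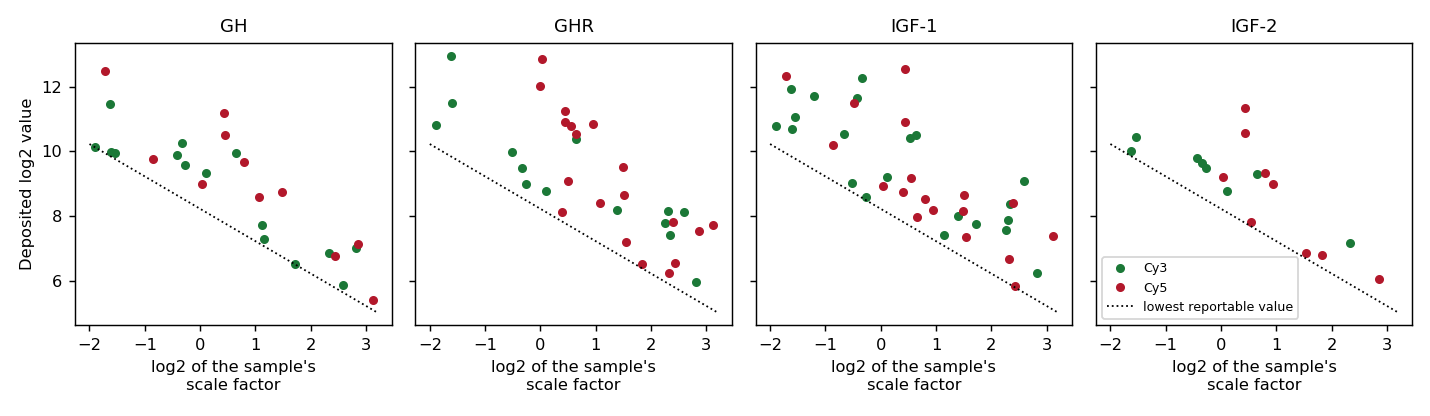
Deposited log2 value of each member against the log2 of the factor that divided its sample, 1 point per measured sample, coloured by dye; the dotted line is the lowest reportable value. The values of all 4 genes fall as the factor rises, with r from -0.86 to -0.77. Their median distance above the line runs from 1.02 for IGF-2 to 1.83 for GHR.

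Under the other scalings given here, at most 1 of the 6 pairs of this axis was still called by r. The median r of the 6 pairs was 0.37 after centring, 0.54 with only the authors' factor removed and 0.16 with background-corrected scanner intensities. Each lay above the median of all pairs of panel genes, a difference that was not tested. With each sample centred on its median panel gene, GHR and IGF-1 gave r = 0.22 and rho = 0.26 (permutation p = 0.277 and 0.186, adjusted p = 0.536 and 0.481). The 6 pairs ran from 0.13, for GH and GHR, to 0.49, for GHR and IGF-2, and 0 of 6 were called, against 1.08% of the 186 pairs, whose median r was 0.14. With only the authors' factor removed, which does not centre the samples, r ran from 0.22 to 0.66 and 0 of 6 pairs were called by r. The unadjusted permutation p of these r ran from 0.0072 to 0.39, and 57 of the 186 pairs of panel genes lay under 0.05. Of the 186 pairs of panel genes, 16 were called positive and 0 negative by r on that scale, with a median r of 0.27. GH and IGF-1 passed by rho (rho = 0.63, adjusted permutation p = 0.0318) but not by r (r = 0.54, adjusted permutation p = 0.0626). With background-corrected and centred scanner intensities, which give a value in all 47 units, GHR and IGF-1 had r = -0.14 and rho = -0.13. Of the 190 pairs of panel genes, 19 were called positive and 5 negative there by r, with a median r of 0.024. Among the members, the 1 pair called was GH and IGF-2, with r = 0.70 and rho = 0.62 (permutation p = 1e-05, adjusted p = 0.000271 and 0.000317). Both of these probes stood above background by 2 SD in 1 sample only.

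**Figure D5:**
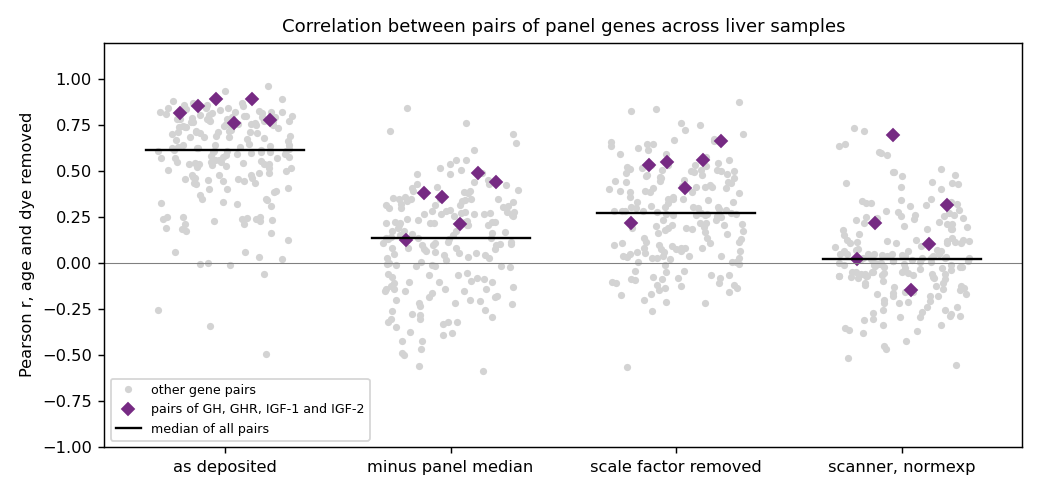
Pearson r between pairs of panel genes after removal of age and dye, under 4 scalings; diamonds are the 6 pairs of GH, GHR, IGF-1 and IGF-2, grey points are all other pairs, and the bar is the median of all pairs. With the deposited values the 6 pairs lie between 0.76 and 0.89 in a cloud with median 0.61. After centring on the panel median they lie between 0.13 and 0.49, with a median of 0.37 against 0.14 for all pairs.

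The genes whose pattern was most like each member were found by the same r, over pairs with at least 10 shared units. For GH they were G-S-T, with r = 0.96 over 18 units, and AMPKg2, a regulatory subunit of the energy sensor AMPK, with 0.94 over 14. These 2 also came first after centring, with r = 0.85 and 0.72, and GH with G-S-T was then 1 of 2 called pairs of the panel (adjusted permutation p = 0.00279). With background-corrected scanner intensities over all 47 units, however, GH had r = 0.011 with G-S-T (adjusted permutation p = 0.992) and -0.018 with AMPKg2 (0.980). For GHR they were IGF-2, with 0.89, and AMPKg2, with 0.84 over 21 units. For IGF-1 they were GH, with 0.85, and LPL, with 0.78 over 37 units, and for IGF-2 they were GHR and GH, with 0.89 each. After centring, GHR was most like IGF-2 and Spot14b, IGF-1 most like IGF-2 and GH, and IGF-2 most like AMPKg2 and Spot14b, with r from 0.38 to 0.65.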

How the data were processed

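Chicken liver RNA was hybridised singly to sub-arrays with 64 spots, 2 for each of 32 probes. The authors deposited a table of processed log2 values, in which 10000 codes a missing value (480 of 1536), and, per the file headers, GenePix scanner files of unnormalized foreground and background intensity per spot. From the scanner files the table was rebuilt as the log2 of the mean over spots whose background-subtracted intensity, less the corn control in 26 samples, exceeded 300, divided by a factor per sample. All 1056 values matched within 0.001 and all 1536 missing states matched. The sources used here do not say how the factor was set. It tracked the brightest housekeeping probe. This match also gave the spots their names. In the deposited series table of intensity, 3 columns of the 6-week group hold the scanner values of another sample (4 those of 5, 5 those of 6, 6 those of 3), so which of these samples, and for sample 5 which dye, the values belong to is in doubt. The log2 table, which was used, matched the scanner file recorded for each sample.

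Missing values were left out. Models of age plus dye over 47 units were fitted per gene with the moderated variances of limma 3.58.1 (R 4.3.3), followed by Benjamini-Hochberg adjustment at 0.05. Permutation tests (100000 draws) used Python 3.11.15, numpy 2.4.6 and scipy 1.17.1, and figures matplotlib 3.10.9. Both were tested on simulated data. Alternatives were other scalings (panel median, housekeeping mean, normexp with offset 50, plain subtraction), dyes, filters, slide and replicate blocks, and each sample left out. The slide was inferred from the recorded scan time. Values from normexp and plain subtraction were also centred on the sample's panel median. Removing the factor and requiring both spots were chosen after seeing the data. The number of arrays and their weak signal limit the precision, and p-values measure the spread between samples as listed. Members and lists were chosen with earlier results of these data known. Besides the members, the 2 genes most correlated with each and tissue markers are named. Of the lists, hepatocyte markers had 2 of 4 genes on the panel, muscle 1 of 2, adipocyte 1 of 3, blood 0 of 2 and pituitary 1 of 3, GH itself.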

Additional observations from a re-analysis of the deposited data

Results flagged for a closer look

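At 8 weeks the deposited GH value of sample 10, 6.78, lay far below the other 7 measured samples, which ran from 8.75 to 10.50. Such a gap appears by chance in about 1 in 20 groups, and no other screened group of gene and age was flagged. Before division by the sample's factor, sample 10 had 598 units, within the 334 to 1960.5 of the other 7. After centring it had -2.01, within their range of -2.24 to -0.08. In channels without label, all 4 members at the Cy3 wavelength and GHR at the Cy5 wavelength passed the cutoff of 300 more often than the corn and blank control spots did. Among the 24 Cy5 samples, read at the Cy3 wavelength, GH passed in 13, IGF-1 in 15, IGF-2 in 8 and GHR in 4, against 2 for corn and 0 for the blank. Among the 24 Cy3 samples, read at the Cy5 wavelength, GHR passed in 2, IGF-1 and IGF-2 in 1 each and GH in 0, against 1 for corn and 0 for the blank. The corn signal of a channel was itself subtracted before the cutoff, from the corn spots too. Low corn counts follow in part from that rule, so corn is not an independent control here. The source of the signal in channels without label was not tested.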

How the results depend on the processing

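The counts of genes called for age (F test, pairs of ages, slope) were 0 under all 19 alternatives run and with each of the 48 samples left out, and the measured share was called for 0 genes under its 3. Samples left out singly kept 6 of 6 member pairs called and 3 to 4 genes called for dye. Genes called for dye, 4 as reported, were 0 with values above background by 2 SD only, 2 with the slide as a fixed block, 2 with the replicate block and 7 with the authors' factor removed. Member pairs called by Pearson's r were 0 of 6 after centring on the panel median and 1 of 6 with normexp. They were 3 of 3 in Cy3 samples, 1 of 1 in Cy5 samples and 0 of 6 with the factor removed. By rho, GH and IGF-1 passed with the factor removed. Over all pairs of panel genes, positive calls by r were 2 of 186 after centring and 19 of 190 with normexp. They were 78 of 122 in Cy3 samples, 76 of 122 in Cy5 samples and 16 of 186 with the factor removed. Negative calls were 5 with normexp, 1 in Cy5 samples and 0 under the rest of these. The r of GHR and IGF-1 turned to -0.14 with normexp.

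Uncalled differences changed sign as follows. For 12 minus 6 weeks, GH was 0.10 centred on the panel median, 0.026 on the housekeeping mean, 0.29 with the replicate block and 0.52 without the samples whose files disagree. GHR was 0.25 in Cy3 samples, 0.47 and 0.25 with these centrings, 0.57 with normexp, 0.565 with subtraction, 4.20 with values above background only and 0.92 with both spots. The value of 4.20 rests on 1 sample of 6 weeks and 4 of 12 weeks. IGF-1 was 0.050 centred on the panel median and 0.017 with subtraction. IGF-2 was 0.36 in Cy3 samples, where sample 1 gave the only 12-week value. Slopes turned to 0.0315 (Cy5 samples), 0.0375 and 0.0337 (centrings), 0.0069 (replicate block) and 0.0263 (without the disagreeing samples) for GH. For GHR they were 0.0644 and 0.0321 (centrings), 0.0817 (normexp), 0.086 (subtraction), 0.61 (above background only), 0.0029 (factor removed) and 0.145 (both spots). For IGF-1 they were 0.029 and 0.0296 (centrings) and 0.0035 (replicate block). Cy5 minus Cy3 turned to -0.37 (normexp), -0.82 (subtraction), -0.26 (missing set to the lowest gene), -0.29 (without the disagreeing samples) and -0.36 (both spots) for GH. For GHR it was -0.13 (48 separate samples), -0.097 (sample 5 alone for the pair), -0.19 (replicate block) and -0.12 (without the disagreeing samples). It was 1.56 (above background only) for IGF-1, and 0.60 (factor removed) and 1.10 (both spots) for IGF-2. With single samples left out, GH ran from -0.85 to 0.31 for 12 minus 6 weeks, its slope from -0.14 to 0.035 and its dye coefficient from -0.42 to 0.57. The dye coefficient of GHR ran from -0.19 to 0.48 and the slope of IGF-1 from -0.099 to 0.0017. The cause of these changes was not tested. Same-numbered samples of different ages did not deviate together (median r -0.021 over 72 pairs), so the replicate block is only a number shared.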
